A study of Mus musculus with 24 samples.

Results

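CD11b+ cells of the spleen were compared with CD11b+ cells of the bone marrow in HDC-KO mice after myocardial infarction (MI), on 6 one-colour Agilent arrays of the 24 in the series. The members were chosen by their labels alone, as the arrays of genotype HDC-KO after MI, and comprised 3 spleen arrays and 3 bone marrow arrays at 1, 2 and 4 weeks after MI. HDC-KO mice lack histidine decarboxylase. The HDC-KO spleen control file held too few spots to be scaled, so no pair of uninjured HDC-KO samples could be formed. All mice were labelled male, and according to the methods they were 10 weeks old on a Balb/C background. Each array held RNA from cells pooled from 5 mice, so the spread between mice was not measured, and whether the spleen and bone marrow of a pair came from the same animals was not given in the sources used here. For comparison, 3 pairs of WT mice (1, 2 and 4 weeks after MI) and 2 pairs of STAT6-KO mice (2 and 4 weeks after MI) from the same series were used.

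CD11b, the product of Itgam, is an integrin chain carried by neutrophils, monocytes, macrophages, and some dendritic, NK and B cells. The bone marrow is where granulocytes and monocytes are formed from dividing precursors, whereas the spleen stores monocytes, houses the red pulp macrophages that clear old red cells, and holds lymphocytes. Histidine decarboxylase makes histamine from histidine, and in myeloid cells of the marrow it is best known from basophils, mast cells and immature CD11b+ cells.

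Levels are given on the log2 scale with the 75th percentile of each array set to 0, in the order 1, 2 and 4 weeks after MI. A difference is spleen minus bone marrow over the 3 pairs, with its standard error (SE), and a gene was called when the limma test with the week as a block gave an adjusted p under 0.05. The 6 arrays had between 76.1 and 79.7% of their spots well above background, and their unscaled signal at the 75th percentile ranged from 1125 to 2461. Correlations over all genes tested were between 0.968 and 0.982 within spleen, between 0.977 and 0.984 within bone marrow, and between 0.909 and 0.941 across the tissues. Each slide held 1 genotype and 1 tissue, so tissue and slide cannot be told apart. The exact sign-flip permutation test over 3 pairs cannot give a two-sided p below 0.25, and was therefore not used for single genes.

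The targeted gene was lower in the arrays labelled HDC-KO. Hdc lay between 1.67 and 2.78 in all 7 HDC-KO arrays of the series and between 4.32 and 5.51 in the 8 WT arrays. Among the 6 arrays compared here, Hdc was 1.76, 1.67 and 1.93 in spleen and 2.32, 2.78 and 2.36 in bone marrow. The remaining signal was well above background on all 6 arrays, and its source was not tested. The difference of -0.70 ± 0.24 (SE, n = 3 pairs) was not called (adjusted p = 0.0773), although the 3 spleen values lay below the 3 bone marrow values.

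The defining marker of the sorted cells was well above background on all 6 arrays. Itgam was 4.31, 3.56 and 3.87 in spleen and 5.77, 5.54 and 5.60 in bone marrow. Its level was lower in the spleen arrays by 1.72 ± 0.22 (SE, adjusted p = 0.00563), and the groups did not overlap. Xist, the RNA that silences 1 X chromosome in female cells, was well above background on all 7 HDC-KO arrays although the mice were labelled male, and lay between -3.31 and -2.05 there. It was well above background on 5 of 8 WT arrays (-7.31 to -5.42 over the 8) and on 6 of 7 STAT6-KO arrays (-6.07 to -3.51 over the 7). The Y-linked genes Ddx3y, Uty and Eif2s3y were well above background on all arrays of the 3 genotypes. Ddx3y lay between -2.48 and -1.15 in HDC-KO and between -1.14 and -0.29 in WT. Of these sex-linked genes, Eif2s3y alone was called between the tissues, with 1.42, 0.86 and -0.16 in spleen and 2.21, 1.74 and 0.72 in bone marrow (-0.85, adjusted p = 0.0306), and it did not pass when any 1 of the pairs was left out (-0.88 to -0.83). What these signals did to the comparison was not tested.

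Of 26729 genes and transcripts tested, 8585 were called (32.1%), of which 4068 were higher in spleen (15.2% of those tested) and 4517 lower (16.9%). The balance depended on the scaling, with 3490 higher and 5530 lower when arrays were scaled to their median, and 4639 higher and 4005 lower when the percentile was taken over probes well above background on all arrays. The median difference over all genes was 0.00, and 10% of the genes lay below -1.35 and 10% above 1.41. A change of more than 4-fold was measured for 2375 called genes, of which 1239 were higher and 1136 lower in spleen. The shares of 15.2% higher and 16.9% lower are the reference for every count of list members given below. In these RNA pools, fewer cells of a type and less RNA per cell cannot be told apart.

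Genes of the neutrophil granules were lower in spleen. The list held 20 genes of the azurophil granules, formed in promyelocytes, and of the specific granules, formed in later precursors. All 20 were tested, 18 were lower and 0 higher, against 16.9% lower over all genes, and the median difference was -2.87 against 0.00. Elane, which encodes neutrophil elastase, was 2.66, 0.35 and 0.47 in spleen and 5.49, 4.63 and 4.91 in bone marrow. The lowest bone marrow value was thus above the highest spleen value, and the difference was -3.85 ± 0.37 (SE, adjusted p = 0.00325). Prtn3, the proteinase 3 gene beside it on the chromosome, changed by -3.41 ± 0.34 (adjusted p = 0.00333). Mpo, the myeloperoxidase that makes hypochlorous acid, was 3.51, 1.84 and 2.33 in spleen and 5.91, 5.46 and 5.45 in bone marrow, a difference of -3.05 ± 0.30 (adjusted p = 0.00327). In each of these genes the spleen array at 1 week was the highest of the spleen arrays, yet below every bone marrow array. Ctsg (cathepsin G) and Ms4a3, a marker of granulocyte and monocyte precursors, differed by -3.38 and -3.01. Among genes of the specific granules, Mmp8 (neutrophil collagenase) differed by -2.97 and Lcn2 (lipocalin 2, which binds siderophores) by -2.31. Ltf, encoding lactoferrin, differed by -0.92 and did not pass when any 1 of the pairs was left out (-0.97 to -0.88) or with quantile normalization (-0.66). The genes not called were Camp, the cathelicidin gene (-0.54, adjusted p = 0.24), and Bpi, a protein that binds endotoxin (0.45, adjusted p = 0.479).

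The promoters of the azurophil genes are shown because the genes moved together, and because PU.1, a factor of the myeloid lineage, is known to bind sequences of the form searched here. RefSeq windows (GRCm38.p6) were available for 19 of the 20 granule genes, and the 250 bases before the start were searched on both strands for GAGGAAGT. It occurred in 4 of the 19 genes (21.1%), and in 2.79% of the 13955 tested genes that had a window. The capitals mark this match, and the stretches lie on the plus strand at chr10:79886212-79886249 (Elane), chr10:79879557-79879594 (Prtn3) and chr11:87793545-87793582 (Mpo).
Elane: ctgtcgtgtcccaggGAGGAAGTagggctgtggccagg
Prtn3: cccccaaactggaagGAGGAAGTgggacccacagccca
Mpo: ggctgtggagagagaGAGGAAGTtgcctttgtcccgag
A second motif, TTGCNNAA, which resembles sites of the C/EBP factors of granulocytes, was found in 5 of the 19 genes (26.3%) and in 9.97% of the tested genes. These matches describe the letters and do not show binding.

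**Figure D1:**
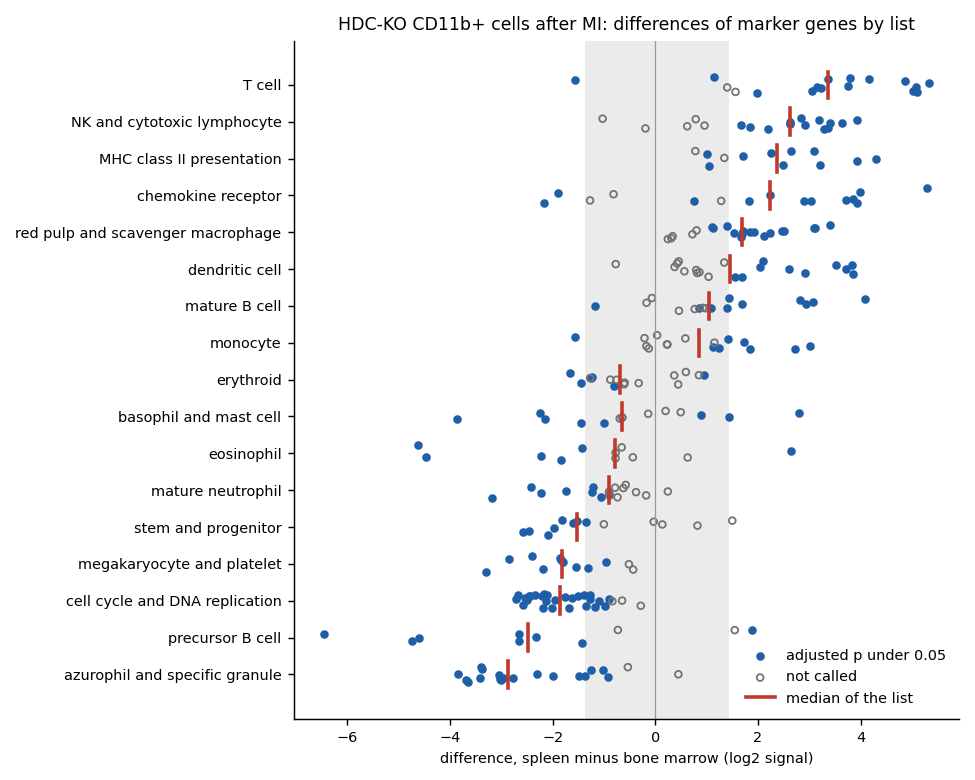
Differences between spleen and bone marrow (x axis, log2 signal) of the tested genes of 17 lists, with filled points for called genes, open points for the others, a red bar at the median of each list and a grey band from the 10th to the 90th percentile of all genes (-1.35 to 1.41). The granule, precursor B cell and cell cycle lists lie to the left with medians of -2.87, -2.48 and -1.86, and the NK cell and T cell lists to the right with 2.62 and 3.37.

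Genes of the cell cycle were lower in spleen as well. Of 30 listed and tested genes, 27 were lower and 0 higher, and the median was -1.86. In 29 of the 30 genes the spleen arrays did not overlap the bone marrow arrays, against 12835 of all 26729 genes and transcripts tested. Mki67, which encodes the Ki-67 antigen of dividing cells, was 2.22, 1.16 and 1.30 in spleen and 4.49, 4.00 and 3.82 in bone marrow, a difference of -2.54 ± 0.23 (SE, adjusted p = 0.00287). Bub1b, a component of the spindle checkpoint, had the largest difference of the list with -2.72 ± 0.22 (adjusted p = 0.00272). Genes of mitosis stood at the low end, such as Ccnb2 (cyclin B2, -2.50), Plk1 (a mitotic kinase, -2.47) and Cdc20 (which activates the anaphase promoting complex, -2.14). Among genes of DNA replication, Mcm5, part of the replicative helicase, differed by -1.76. The 3 genes not called all act in the synthesis phase: Tyms (thymidylate synthase, -0.84), Mcm4 (helicase subunit, -0.65) and Pcna (the sliding clamp, -0.29). Cdk1, the mitotic kinase, differed by -1.68 on the probe used, whereas 1 of its 3 probes pointed the other way (0.43).

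Promoters of cell cycle genes commonly carry inverted CCAAT boxes, bound by NF-Y, and the cell cycle genes homology region (CHR). The letters ATTGG occurred on either strand in 22 of the 26 cell cycle genes with a window (84.6%), against 39.3% of all tested genes with a window. The letters TTTGAA of the CHR occurred in 7 of the 26 genes (26.9%), against 14.4%. In the stretches shown for Mki67 (chr7:135716457-135716582) and Cdc20 (chr4:118437344-118437411), both from the minus strand and written in the direction of the gene, capitals mark ATTGG or its complement CCAAT and TTTGAA.
Mki67: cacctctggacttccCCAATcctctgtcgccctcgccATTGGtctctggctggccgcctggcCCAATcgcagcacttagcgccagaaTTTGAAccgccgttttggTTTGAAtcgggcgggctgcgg
Cdc20: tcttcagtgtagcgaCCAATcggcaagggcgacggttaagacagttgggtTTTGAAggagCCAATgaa
Each of these stretches holds both motifs, at differing spacing. In the window of Bub1b, which had the largest difference of the list, ATTGG was found but TTTGAA was not.

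Most markers of other precursors followed the same direction. Of 13 tested genes of stem and progenitor cells, 8 were lower and 0 higher (median -1.52). Prom1, a membrane protein of progenitors, was 0.26, -0.84 and -0.41 in spleen and 2.97, 2.24 and 1.55 in bone marrow (-2.58 ± 0.29, SE, adjusted p = 0.00405). Myb, a factor needed for blood formation, and Cd34, a stem cell antigen, differed by -2.46 and -1.97. Of 10 precursor B cell genes, 7 were lower and 1 higher (median -2.48). Vpreb1, which encodes part of the surrogate light chain, had 1 of the largest differences measured, with -3.57, -2.77 and -2.92 in spleen and 1.09, 1.95 and 1.93 in bone marrow (-4.75 ± 0.21, adjusted p = 0.00251). Rag1, the recombinase of antigen receptor genes, was well above background on the 3 bone marrow arrays and on none of the spleen arrays, and was at least 34.8-fold higher in bone marrow (adjusted p = 0.00254). Among the called genes the exception was Il7r, the interleukin 7 receptor, which was higher in spleen by 1.88 (adjusted p = 0.00667). Il7r is also carried by T cells, whose markers were higher in spleen. Lef1 also differed in favour of spleen (1.55) but was not called.

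Megakaryocyte and platelet genes were lower in spleen in 10 of 12 cases, with 0 higher and a median of -1.82. Gp1ba, a chain of the receptor for von Willebrand factor, was -3.06, -2.81 and -2.85 in spleen and -0.57, 0.53 and 1.24 in bone marrow (-3.31 ± 0.35, SE, adjusted p = 0.00373). Ppbp and Pf4, chemokines of platelet granules, differed by -2.85 and -1.80. Vwf (-0.52) and Tubb1, a platelet tubulin (-0.43), were not called, and without the pair of 4 weeks their differences turned to 0.23 and 0.35.

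Eosinophil genes split. Of 11 tested, 5 were lower and 1 higher (median -0.78). Epx, the eosinophil peroxidase, was -4.77, -6.07 and -5.05 in spleen and -0.12, -0.60 and -1.29 in bone marrow (-4.63 ± 0.37, SE, adjusted p = 0.0027), and Prg2, the major basic protein, differed by -4.47. Both are granule genes made in eosinophil precursors. Ccr3, the eotaxin receptor of mature eosinophils, was 2.37, 1.54 and 1.95 in spleen and -0.46, -1.20 and -0.39 in bone marrow, higher in spleen by 2.64 ± 0.22 (adjusted p = 0.00273). Siglecf, a further surface marker of eosinophils, was not called (-0.44, adjusted p = 0.297).

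Basophil and mast cell genes bear on the cells that make histamine. Of 14 tested, 5 were lower and 3 higher (median -0.65). Prss34, the basophil protease mMCP-11, was -3.13, -2.73 and -2.86 in spleen and 0.21, 1.31 and 1.36 in bone marrow (-3.87 ± 0.26, SE, adjusted p = 0.00254). Mcpt8, a further basophil protease, differed by -2.24 (adjusted p = 0.00353). Il4, the cytokine that signals through STAT6, was higher in spleen, with -1.83, -1.67 and -1.81 against -3.34, -3.44 and -2.84 (1.44 ± 0.24, adjusted p = 0.0112). Also called higher were Cma1 (2.80), which was well above background on no bone marrow array, and Kit (0.88). Of the 7 tested genes of histamine synthesis, transport and reception, 3 were lower and 0 higher (median -0.70). Slc18a2, the vesicular transporter that loads histamine, was lower by a difference of -1.40 (adjusted p = 0.00776). Hnmt, which methylates histamine, was 0.41, -0.31 and 0.67 in spleen and 1.49, 1.82 and 1.69 in bone marrow (-1.41, adjusted p = 0.0216). It did not pass without the pair of 2 weeks (-1.05) or of 4 weeks (-1.61). The receptors Hrh3 (0.92, adjusted p = 0.081) and Hrh4 (-0.25, adjusted p = 0.476) were not called. Hrh1 was not called on the probe used (0.21), whereas another of its 3 probes differed by 4.34 and the last by 0.29.

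Of 17 tested mature neutrophil genes, 8 were lower in spleen and 0 higher, and the median was -0.90. Mmp9, the gelatinase of tertiary granules, was 1.90, 0.85 and 1.11 in spleen and 4.50, 4.37 and 4.53 in bone marrow (-3.18 ± 0.27, SE, adjusted p = 0.00273). The formyl peptide receptors Fpr2 and Fpr1, which sense bacterial peptides, differed by -2.42 and -2.23. The calprotectin genes S100a8 (-0.62, adjusted p = 0.163) and S100a9 (-0.38, adjusted p = 0.312) were not called, nor were Csf3r, the receptor of G-CSF (-0.58), Cxcr2, the receptor that draws neutrophils out of the marrow (-0.89), and Il1b (-0.18). The levels of S100a8 were 5.30, 5.31 and 6.32 in spleen and 6.43, 6.09 and 6.27 in bone marrow, and overlapped. Erythroid genes showed no common direction, with 5 of 16 lower and 1 higher (median -0.68). Rhag, part of the Rh complex of red cells, differed by -1.66 and Gata1, the erythroid and megakaryocyte factor, by -1.44. The globin genes Hbb-bt, Hbb-b2 and Hba-a1 went the other way, by 0.95, 0.85 and 0.59. The summed linear level of the list was 86.5, 64.4 and 115.9 in spleen and 63.9, 52.6 and 91.4 in bone marrow. It was thus higher in spleen at each week, although the ranges overlapped.

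**Figure D2:**
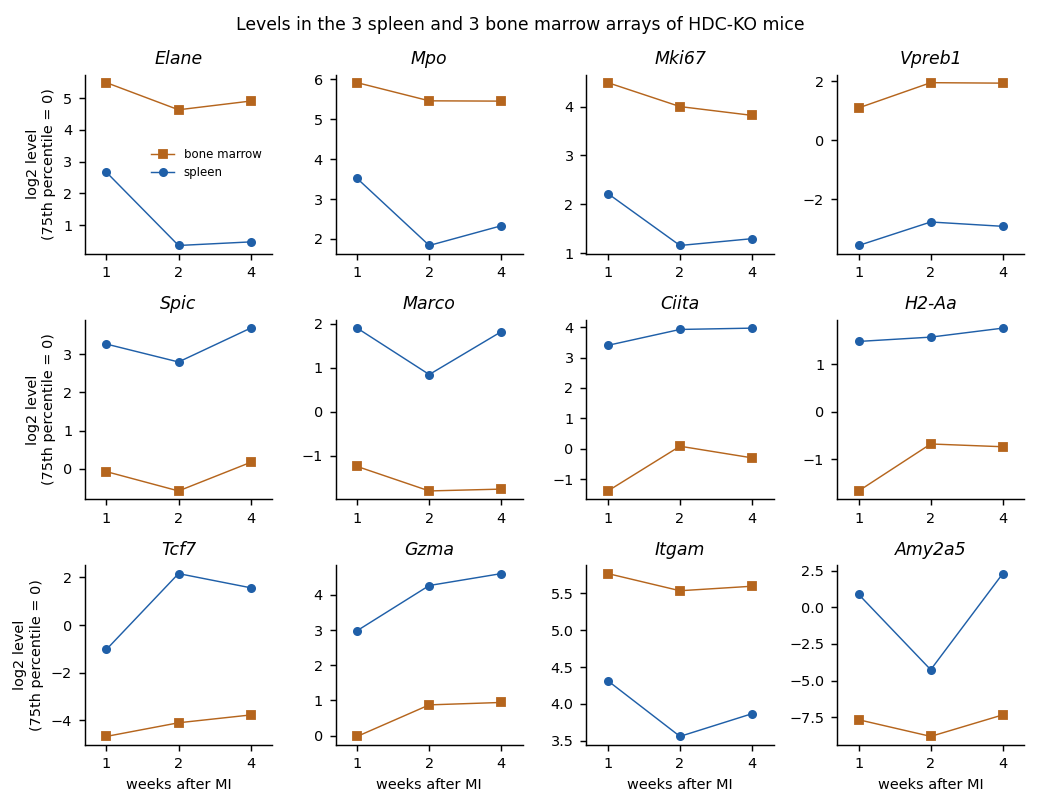
Levels of 12 genes (y axis, log2 signal with the 75th percentile of the array at 0) at 1, 2 and 4 weeks after MI (x axis) in HDC-KO spleen (blue circles) and bone marrow (brown squares), 1 array a point. The lines of spleen and bone marrow are apart at each week in all 12 genes, Itgam being lower in spleen by 1.72, and Amy2a5, a pancreatic amylase gene, stood at -4.26 in the spleen array of 2 weeks.

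Genes of red pulp and scavenger macrophages were higher in spleen. Of 21 tested, 16 were higher and 0 lower, against 15.2% higher over all genes, with a median of 1.69. Spic, the factor that defines red pulp macrophages, was 3.26, 2.80 and 3.68 in spleen and -0.07, -0.58 and 0.17 in bone marrow, a difference of 3.41 ± 0.21 (SE, adjusted p = 0.00251). Marco, a scavenger receptor of the marginal zone, was 1.90, 0.85 and 1.82 against -1.24, -1.79 and -1.75 (3.12 ± 0.26, adjusted p = 0.00273). Nr1h3, the oxysterol receptor LXRα, and Cd5l, a secreted protein of tissue macrophages, differed by 3.10 and 2.51. Receptors that take up dying cells were among those higher, with Mertk at 2.46 and Timd4 at 1.85. Adgre1, the F4/80 antigen, differed by 2.24, Mrc1, the mannose receptor, by 2.11, and Vcam1, an adhesion molecule of red pulp macrophages, by 1.92. Slc40a1, the iron exporter ferroportin, was 5.24, 4.89 and 5.60 in spleen and 5.05, 4.99 and 4.97 in bone marrow, where the groups overlapped and the difference of 0.24 was not called (adjusted p = 0.475). Siglec1, the sialoadhesin of metallophilic macrophages, was not called either (0.34, adjusted p = 0.347).

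Genes of antigen presentation by MHC class II were higher in spleen in 10 of 12 cases, with 0 lower and a median of 2.37. In all 12 the groups did not overlap, against 12835 of all 26729 genes and transcripts tested. Ciita, the transactivator of these genes, was 3.40, 3.92 and 3.97 in spleen and -1.39, 0.08 and -0.30 in bone marrow (4.30 ± 0.26, SE, adjusted p = 0.00251). H2-Aa, the alpha chain of I-A, was 1.48, 1.57 and 1.76 against -1.67, -0.68 and -0.74 (2.63 ± 0.26, adjusted p = 0.00336). H2-Oa, a chain of the B cell and dendritic cell molecule that restrains peptide loading, differed by 3.93, and H2-DMb1, a chain of the loading catalyst, by 2.25. The beta chains H2-Ab1 and H2-Eb1 differed by 1.01 and 1.04, and did not pass without the pair of 1 week (H2-Ab1 0.95, H2-Eb1 1.04) or of 4 weeks (H2-Ab1 0.82, H2-Eb1 0.83). Cd74, the invariant chain, was not called (1.34, adjusted p = 0.0586). B cells carry these genes too, and the summed linear level of the 16 mature B cell markers was between 46.4 and 128 in spleen and between 31.3 and 63.1 in bone marrow, and all were well above background on all 6 arrays. Their part in the difference was not tested.

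The promoters of MHC class II genes hold a Y box, an inverted CCAAT sequence bound by NF-Y beside the sites where the Ciita protein is recruited. The letters ATTGG on either strand occurred in 8 of the 9 listed genes with a window (88.9%), against 39.3% of the tested genes. The stretches are from chr17:34287852-34287886 (H2-Aa, minus strand), chr17:34305793-34305851 (H2-Eb1, plus strand) and chr17:34153115-34153149 (H2-DMb1, plus strand), with ATTGG or CCAAT in capitals.
H2-Aa: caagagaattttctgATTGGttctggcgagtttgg
H2-Eb1: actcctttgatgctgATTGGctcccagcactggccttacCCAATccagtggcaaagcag
H2-DMb1: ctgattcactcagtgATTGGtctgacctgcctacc
The same letters were as frequent in the cell cycle genes (84.6%), which went in the opposite direction.

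Dendritic cell genes were higher in spleen in 10 of 20 cases, with 0 lower and a median of 1.44. Clec4a4, the receptor DCIR2 of splenic dendritic cells, was 1.03, 0.56 and 0.53 in spleen and -3.07, -3.29 and -3.09 in bone marrow (3.86 ± 0.22, SE, adjusted p = 0.00251). Xcr1, the chemokine receptor of cross-presenting dendritic cells, was well above background on all spleen arrays and on no bone marrow array, at least 4.49-fold higher in spleen (adjusted p = 0.0027). Ccr7, which guides dendritic cells and T cells to lymphoid tissue, was 1.54, 3.49 and 4.75 in spleen and -1.85, -0.57 and 1.08 in bone marrow (3.70 ± 0.24, adjusted p = 0.00252). Flt3, a growth factor receptor of dendritic cell precursors, differed by 2.09, whereas Zbtb46, a factor of classical dendritic cells (1.04, adjusted p = 0.0921), and Siglech, a marker of plasmacytoid cells (0.37, adjusted p = 0.386), were not called. The other, dimmer probe of Zbtb46 differed by 3.51.

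Of 16 tested monocyte genes, 7 were higher and 1 lower in spleen (median 0.85). The gene that was lower was Ly6c1, 1 of the Ly6C genes. It was 5.32, 4.98 and 5.12 in spleen and 6.84, 6.48 and 6.76 in bone marrow (-1.56 ± 0.21, SE, adjusted p = 0.00583). Ly6c2, listed with it, had no matching probe. Cd300e, Cx3cr1 and Nr4a1 were higher in spleen by 3.003, 1.73 and 1.41. Cx3cr1, the fractalkine receptor, and Nr4a1, a nuclear receptor, mark patrolling monocytes. Of the same list, Ace, Pou2f2 and Treml4 were also higher (1.84, 1.23 and 1.12), whereas Spn, Itgal and Ear2 were not called (0.23, -0.18 and -0.13). Nr4a1 was 5.04, 5.05 and 6.27 in spleen and 3.76, 3.34 and 5.04 in bone marrow, so that the array of 4 weeks was the highest of either tissue. Csf1r, the receptor of macrophage growth factor (0.58, adjusted p = 0.107), and Ccr2, the receptor that releases classical monocytes from the marrow (1.15, adjusted p = 0.0531), were not called.

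Markers of lymphocytes, most of which carry no CD11b, were higher in the spleen arrays. Of 17 T cell genes, 14 were higher and 1 lower, with a median of 3.37, the largest of the lists. Tcf7, a factor of naive T cells, was -1.03, 2.16 and 1.57 in spleen and -4.68, -4.11 and -3.78 in bone marrow (5.09 ± 0.51, SE, adjusted p = 0.00344). Trat1 and Cd3g, parts of the T cell receptor complex, differed by 5.33 and 5.03, and Lck, the kinase that starts its signal, by 3.76. In these genes the spleen array of 1 week was the lowest of the spleen arrays and still above the bone marrow arrays. Cd3d, a chain of the same complex as Cd3g, went against the list with 1.25, 2.62 and 2.11 in spleen and 3.53, 3.55 and 3.63 in bone marrow (-1.58, adjusted p = 0.018). It did not pass without the pair of 1 week (-1.22) or of 4 weeks (-1.60), and Cd3e was not called (1.56, adjusted p = 0.0857). The summed linear level of the list was 13.2, 59.6 and 46.1 in spleen and 16.2, 16.6 and 16.6 in bone marrow. The sums thus overlapped between the tissues through the week 1 array. Of the list, Cd3d had the highest mean log2 level in bone marrow (3.57), and Cd4 came next (0.65). The bone marrow sums thus rest largely on Cd3d, the gene that went against the list. All 17 genes were well above background on the 3 spleen arrays, and 15 on the 3 bone marrow arrays. Cd247, a signalling chain of the receptor, was so on 0 of the bone marrow arrays, and Themis, a signalling protein of thymocytes, on 1.

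NK and cytotoxic lymphocyte genes were higher in 13 of 18 cases, with 0 lower and a median of 2.62. Ccl5, a chemokine of cytotoxic cells, was 3.31, 4.24 and 4.55 in spleen and -0.40, 0.28 and 0.46 in bone marrow (3.92 ± 0.22, SE, adjusted p = 0.00251). Tbx21, the factor T-bet, Gzma, the protease granzyme A, and Ncr1, the NK cell receptor NKp46, differed by 3.63, 3.35 and 3.28. NK cells carry CD11b themselves. Klre1, an NK cell lectin receptor, was not called and had a difference of -1.03 (adjusted p = 0.188). The summed level was between 24.3 and 65.8 in spleen and between 8.35 and 9.19 in bone marrow.

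Mature B cell genes were higher in 9 of 16 cases and lower in 1, with a median of 1.04. Cr2, the complement receptor of marginal zone and follicular B cells, was 1.22, 3.35 and 3.16 in spleen and -1.85, -1.15 and -1.51 in bone marrow (4.08 ± 0.37, SE, adjusted p = 0.00291). Ms4a1, which encodes CD20, differed by 2.93, whereas Cd79a, a chain of the B cell receptor complex, was not called (0.76, adjusted p = 0.246). Within each tissue the array of 1 week was the lowest in Ms4a1, with 2.23 in spleen and -0.87 in bone marrow. Plasma cell genes were higher in 6 of 10 cases and lower in 1, with a median of 0.95. Jchain, the joining chain of secreted antibodies, differed by 2.21 (adjusted p = 0.00541), and Xbp1, a factor of secretory cells, was not called (-0.19, adjusted p = 0.573).

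Chemokine receptors were higher in spleen in 10 of 15 cases and lower in 2, with a median of 2.23. Ccr6, the receptor of CCL20, was 1.42, 2.91 and 2.73 in spleen and -3.68, -2.23 and -2.92 in bone marrow (5.30 ± 0.23, SE, adjusted p = 0.00251). Cxcr5, which guides B cells to follicles, differed by 3.98, Cxcr6, of T and NK cells, by 3.84, and S1pr5, of NK cells and patrolling monocytes, by 3.72. Lymphocytes also carry these receptors, and the lymphocyte lists above moved with them, a part that was not tested. The genes that were lower respond to chemoattractants of neutrophils, namely Ltb4r1, the leukotriene B4 receptor (-2.18, adjusted p = 0.00436), and C5ar1, the C5a receptor (-1.90, adjusted p = 0.00608). Chemokines had no common direction, with 4 higher and 4 lower of 16 (median 0.14). Ccl24, eotaxin 2, was 0.90, -0.07 and 0.45 in spleen and -3.04, -3.12 and -2.27 in bone marrow (3.24 ± 0.30, adjusted p = 0.00298).

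Of 13 integrin genes, 6 were higher and 4 lower. Itgad, the CD11d chain of splenic red pulp macrophages, was 4.71, 4.38 and 5.14 in spleen and 1.44, 0.41 and 1.42 in bone marrow (3.65 ± 0.24, SE, adjusted p = 0.00254). Itgb2l, a beta chain close to CD18 that is known from neutrophil precursors, differed by -3.33 (adjusted p = 0.00256). Itga1, the collagen receptor chain, differed by 2.37 on the probe used and by 0.21 on its other probe. Of 16 myeloid transcription factors, 6 were higher and 3 lower (median 0.26). Maf, a factor of macrophages, differed by 2.28 (adjusted p = 0.00386). Irf8, which directs monocyte and dendritic cell fate, was 4.18, 4.10 and 4.19 in spleen and 2.07, 2.71 and 3.41 in bone marrow (1.42, adjusted p = 0.023), and did not pass without the pair of 1 week (1.09).

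Of 19 cytokine genes, 7 were higher and 5 lower, and the median was 0.19. Ifng, the interferon of NK and T cells, was -1.25, 0.96 and 2.05 in spleen and -4.04, -3.90 and -2.11 in bone marrow (3.93 ± 0.42, SE, adjusted p = 0.00387). Il18, which induces that interferon, differed by 2.40 and Il1a by 2.00. Those lower included Tnfsf13b, the B cell survival factor BAFF (-2.78, adjusted p = 0.00386), Osm, oncostatin M (-2.14), and Tnf (-1.68, adjusted p = 0.00552). Tnf was -1.19, -1.52 and -1.36 in spleen and 0.41, 0.01 and 0.56 in bone marrow. Tgfb1, a main inducer of fibrosis, was not called (-0.34, adjusted p = 0.568), with levels of -0.37, -0.71 and -1.68 in spleen and -1.06, -0.39 and -0.30 in bone marrow. Its difference was 0.19 without the pair of 4 weeks.

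Of 14 Toll-like receptor genes, 6 were higher and 2 lower (median -0.04). Tlr3, the sensor of double-stranded RNA, was well above background on every spleen array and on no bone marrow array, at least 4.98-fold higher in spleen (adjusted p = 0.00251). Tlr5, the flagellin sensor, differed by -2.07 (adjusted p = 0.00523), and Tlr4, the endotoxin sensor, was not called (-0.44). Of 9 Fc receptor genes 3 were higher and 1 lower (median 0.08), and of 18 immediate early genes 3 were higher and 3 lower (median -0.35). Over all genes 15.2% were higher and 16.9% lower, and the immediate early counts lay near these shares. Klf4, an immediate early factor of monocytes, differed by 1.73 (adjusted p = 0.00674), Ier2 by -1.30 (adjusted p = 0.0093), while Fos was not called (-0.36). Of 14 interferon-induced genes, 2 were higher, near the share of 15.2% over all genes, and 0 lower (median 0.11). Ifi44 and Gbp3 differed by 2.04 and 1.95, and Ifit1 by 0.06 (adjusted p = 0.847).

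Genes of stromal cells, which carry no CD11b, gave signal in both tissues. Of 15 bone marrow stroma genes, 7 were lower and 3 higher in spleen (median -1.43). Cxcl12, the chemokine that holds progenitors in the marrow, was -4.76, -4.53 and -2.995 in spleen and -1.02, 2.09 and 0.65 in bone marrow (-4.67 ± 0.63, SE, adjusted p = 0.00616). Adipoq, the adipocyte hormone adiponectin, was at least 20.8-fold higher in bone marrow, where alone it was well above background. Postn, the matrix protein periostin, went the other way and was among the largest differences, with 1.65, 0.83 and 1.52 in spleen and -5.78, -4.08 and -5.62 in bone marrow (6.49 ± 0.53, adjusted p = 0.0027). Of 13 genes of splenic stroma and endothelium, 2 were higher and 4 lower (median 0.10). Cxcl13, a chemokine, and Stab2, the hyaluronan receptor of sinusoidal endothelium, differed by 3.04 and 2.70. Pdpn, podoplanin, and Lyve1, a lymphatic marker, differed by -3.65 and -3.11. The other probe of Pdpn, which was well above background on no spleen array, differed by -1.02. The summed level of the bone marrow stroma list was between 4.97 and 9.66 in spleen and between 5.82 and 12.0 in bone marrow, so that the groups overlapped. The part of these cells in other differences was not tested.

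Of 14 genes of the exocrine pancreas, which lies against the spleen, 5 were higher in the spleen arrays, 0 lower and 9 not called (median 2.11). This list was written after the values were seen. Amy2a5, a pancreatic amylase, was 0.89, -4.26 and 2.31 in spleen and not well above background on any bone marrow array, and was at least 86.3-fold higher in spleen (adjusted p = 0.00542). Pnlip, pancreatic lipase, was -2.26, -6.46 and -0.78 in spleen, and Cpb1, carboxypeptidase B1, was -1.41, -4.23 and -0.64, so that the spleen array of 2 weeks was the lowest in each of these genes. Pnlip passed over the 3 pairs (adjusted p = 0.0362) and not without the pair of 1 week (4.59) or of 4 weeks (3.10), and Cpb1 was not called (3.96, adjusted p = 0.0575). The summed level of the list was between 2.69 and 13.4 in spleen and between 1.20 and 1.69 in bone marrow. Gp2, the main glycoprotein of pancreatic zymogen granules, also known from M cells, was also lowest at 2 weeks but over a narrower range, with 1.09, 0.34 and 1.44 in spleen.

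Among all genes with a symbol that were called, well above background on the 6 arrays and of the same sign in the 3 pairs, Gp2 had the largest difference in favour of spleen (6.57 ± 0.26, SE, adjusted p = 0.00251). It was followed by Kcnj16, a potassium channel subunit, with 1.91, 1.01 and 1.84 in spleen and -4.32, -6.01 and -4.59 in bone marrow (6.56 ± 0.25), and by Postn. Next came Pcolce2, an enhancer of collagen processing (5.75), Adamdec1, a protease of macrophages and dendritic cells (5.42), Ptgis, prostacyclin synthase (5.38), Trat1 and Ccr6, given above, Klrg1, a receptor of mature NK and T cells (5.22), and Tcf7. In the opposite direction stood Vpreb1, Cxcl12, Epx and Prg2, followed by Timp3, an inhibitor of metalloproteinases (-4.29), Ednra, the endothelin A receptor (-4.23), Ush1c, a scaffold protein (-3.90), Prss34, Elane, and Npas1, a transcription factor known from neurons (-3.84). Ednra was -2.90, -3.57 and -3.30 in spleen and 1.29, 1.01 and 0.61 in bone marrow. For Ush1c and Npas1, 1 of their 2 probes gave differences of 0.05 and 0.34, and Npas1 did not pass as the mean of its probes (-1.75).

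For genes well above background on all arrays of 1 tissue and on none of the other, the fold is a lower bound, set on each array of the dim tissue against the higher of the lowest signal well above background and the own signal of the probe. In favour of spleen the largest bounds were at least 97.4-fold for Adam23, an adhesion protein, and, after Amy2a5, at least 67.3-fold for Tdrp, at least 41.7-fold for Cpne4, a copine, and at least 37.4-fold for Dapl1. Adam23 was steady over the weeks in spleen, with -0.13, -0.15 and -0.25. Tdrp and Dapl1 were lowest in the spleen array of 1 week, with -3.05 and -4.03, as the T cell markers were. In favour of bone marrow they were at least 54.1-fold for Igfbp5, a binding protein of insulin-like growth factors, then Rag1 and Adipoq, at least 18.5-fold for Cntnap5b and at least 16.5-fold for Olfr716, an olfactory receptor gene. The second probe of Cntnap5b differed by 0.35. Over all genes, 281 called genes had such a bound in favour of spleen and 454 in favour of bone marrow.

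The tissue difference of HDC-KO was set against that of the other genotypes by a test of the difference of differences over 8 pairs, the pair being held. Against WT, 51 of 27471 genes were called (0.186%), 47 with a larger and 4 with a smaller value in HDC-KO, where larger means more in favour of spleen. Against STAT6-KO, 217 were called (0.790%), 206 larger and 11 smaller, a count that was 67, 425 and 16 without the HDC-KO pair of 1, 2 and 4 weeks. With normexp background correction, or with the WT pairs left out of the fit, limma called 0 genes against STAT6-KO, where 1168 and 2896 had an unadjusted p under 0.05. Genotype and slide cannot be told apart in these contrasts. No member of the lists above was called in either, and the medians are therefore given side by side as a description. The granule list had a median of -2.87 in HDC-KO, -1.27 in WT and -2.80 in STAT6-KO, and the cell cycle list -1.86, -0.47 and -2.05. For the cell cycle list the medians of the pairs were -1.91, -2.05 and -1.69 in HDC-KO and -0.13, -0.62 and -0.82 in WT, so the pairs of these genotypes did not overlap, while those of STAT6-KO were -1.68 and -2.36. The T cell list had 3.37, 2.44 and 3.09 in the same order of genotypes, and the MHC class II list 2.37, 1.95 and 2.55. For the erythroid list the HDC-KO pairs were close together (-0.59, -0.70 and -0.60), whereas the WT pairs ran from 1.92 at 1 week to -0.66 at 4 weeks.

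**Figure D3:**
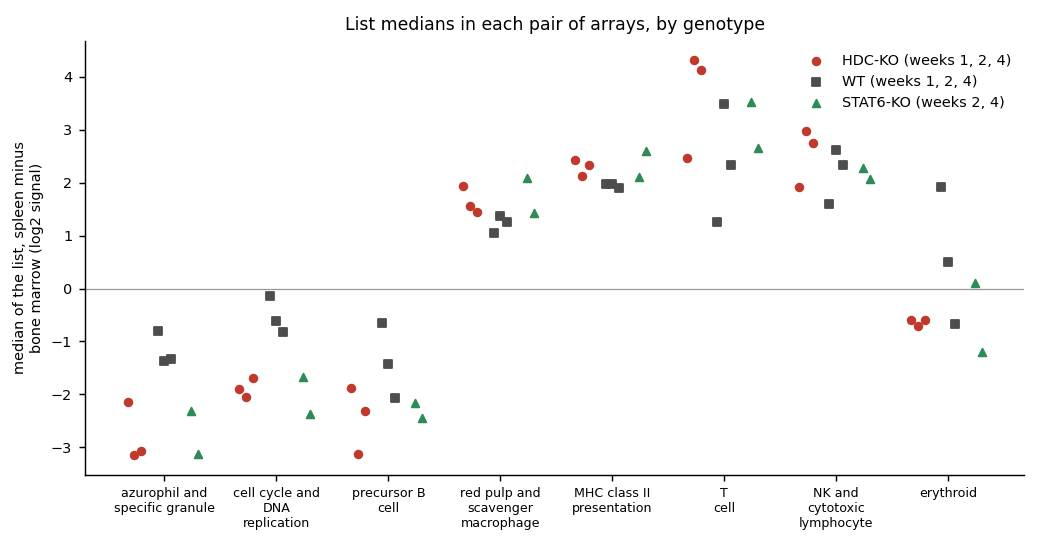
Median difference between spleen and bone marrow (y axis, log2 signal) of 8 gene lists in each pair of arrays, for HDC-KO (red circles, 3 pairs), WT (grey squares, 3 pairs) and STAT6-KO (green triangles, 2 pairs), with the weeks from left to right. The cell cycle medians of HDC-KO (-2.05 to -1.69) lie below those of WT (-0.82 to -0.13), and no single gene of these lists passed the test between the genotypes.

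The genes that were called against WT were mostly dim. Of the 45 among the 51 that were also tested between the HDC-KO tissues, 6 were well above background on all 6 arrays, and 29 were not well above background on any HDC-KO bone marrow array. Olfr1129, an olfactory receptor gene, had HDC-KO levels of -4.74, -4.81 and -4.77 in spleen and was not well above background on any bone marrow array, at least 4.03-fold higher in spleen. Its tissue difference exceeded that of WT by 4.32 ± 0.42 (SE, adjusted p = 0.0284). Six4, a homeobox factor, and Vmn1r228, a pheromone receptor gene, followed with 4.26 and 4.21 (adjusted p = 0.0225 for each). Neither was well above background on any HDC-KO bone marrow array, and they were at least 3.28-fold and 3.08-fold higher in spleen. Both lost their call between the tissues with normexp background correction. Adamts9, a matrix protease, was next (3.80, adjusted p = 0.0397), with HDC-KO levels of -6.77, -4.54 and -4.23 in spleen. The noncoding gene 2900052N01Rik was well above background on all 6 arrays, with -1.13, -1.10 and 0.65 in spleen and -4.32, -4.22 and -3.92 in bone marrow, and exceeded WT by 3.75 ± 0.47 (adjusted p = 0.0397). Its STAT6-KO pairs (2.05 and 2.56) lay between those of WT (-0.61, -0.24 and 0.46) and HDC-KO. The genes with a symbol that were called with a smaller value were Gm20755 (-3.31), Slc6a15, an amino acid transporter (-2.38), and Glrp1, a glutamine repeat protein (-2.09). Glrp1, well above background on all 6 arrays, differed by -1.82 in HDC-KO and by 0.27 in WT. The count of genes called against WT by limma fell to 0 without the HDC-KO pair of 1 week or of 4 weeks, with only genes well above background on every array, and with another background correction (normexp), where 3634, 3260, 2517 and 3098 genes had an unadjusted p under 0.05. Without the pair of 2 weeks it was 316.

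**Figure D4:**
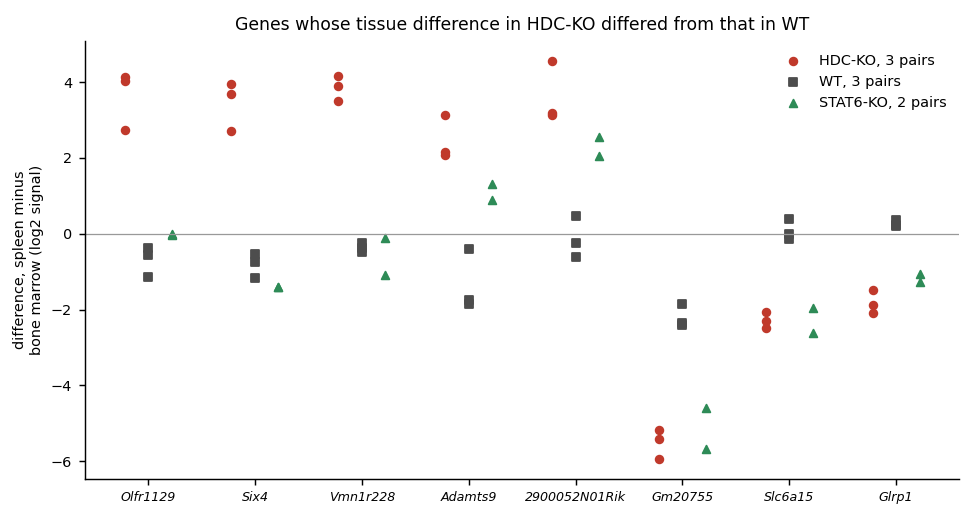
Differences between spleen and bone marrow (y axis, log2 signal) of the 8 named genes called against WT, in each pair of HDC-KO (red circles), WT (grey squares) and STAT6-KO (green triangles). The HDC-KO pairs lie above the WT pairs in the first 5 genes and below them in the last 3, and in Gm20755, Slc6a15 and Glrp1 the STAT6-KO pairs lie on the side of HDC-KO.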

How the data were processed

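RNA of CD11b+ cells was hybridised with Cy3 to Agilent Mouse 4x44K arrays. The deposited values are spot intensities on a linear scale, which the authors read with Agilent Feature Extraction 11.0.1.1 (background subtracted, no scaling between arrays). The authors name Genespring for later steps, whose output was not used. Here control and outlier spots were left out, log2 was taken, and the 75th percentile of the array subtracted. Probes were named through RefSeq accessions (27234 of 39429, for 20659 genes), and a gene was represented by its probe of highest mean level on the 22 complete arrays. Genes well above background on fewer than 2 of the 6 arrays were left out.

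limma 3.58.1 (R 4.3.3 with data.table, version 1.17.8) was fitted with the week as block, with Benjamini-Hochberg adjustment at 0.05. The weeks paired the arrays, since deviations of same-week arrays correlated at 0.279, 0.171 and 0.254. No condition had replicate arrays, so the error is the variation between weeks. The contrasts of genotypes used pair differences. The fits were tested on simulated data. The members and gene lists were chosen with earlier results of these data known. Named were the 10 largest differences each way, the 5 largest bounds each way, up to 5 genes each way against WT, Hdc, and members of the lists. List genes with no matching probe, or too dim for the filter, were not analysed here. Promoter windows came from RefSeq (GRCm38.p6). Normexp (offset 50) was run on the median spot signal. Python 3.11.15 with matplotlib 3.10.9 and pandas 2.3.3 made the plots.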

Additional observations from a re-analysis of the deposited data

Results flagged for a closer look

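The tissue difference of HDC-KO differed from that of WT in 51 genes and from that of STAT6-KO in 217 genes by the limma test of the difference of differences, and 39 genes were called in both. These contrasts share the HDC-KO arrays. Both counts fell to 0 with normexp background correction, where 3098 and 1168 genes had an unadjusted p under 0.05. Of the named genes, the HDC-KO difference exceeded that of WT by 4.32 in Olfr1129, 4.26 in Six4, 4.21 in Vmn1r228, 3.80 in Adamts9 and 3.75 in 2900052N01Rik. It was below that of WT in Gm20755 (-3.31), Slc6a15 (-2.38) and Glrp1 (-2.09). Olfr1129, Six4 and Vmn1r228 were not well above background on any HDC-KO bone marrow array, nor was Slc6a15 on any HDC-KO spleen array. Their values therefore rest in part on signal near background. Every HDC-KO pair lay on 1 side of every WT pair in each of these 8 genes. The genes were chosen by the test on these same pairs, so this separation follows from the choice and is no separate support. The arrays of a genotype and tissue shared a slide, and the part of the slide was not tested.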

How the results depend on the processing

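The alternatives were run for 168 of the genes named, of which 133 were called. There were 8 for single genes (normexp, quantile and median scaling, a floor, the mean over probes, and each week left out). Over these, the 133 kept their direction. Of them, 119 stayed called in all 8 and 126 in the 5 with all 6 arrays. The count of genes called between the tissues was 8158 without the replicate block and between 6184 (normexp) and 10813 (all 10 pairs) in the other limma fits with no week left out, but 5683 to 6707 with 1 week left out (2510 to 3578 higher, 2838 to 3323 lower, the lowest total without week 1). The methods' t-test after Benjamini-Hochberg adjustment called 5790 genes, 2556 of them higher. Scaling to the median of the array moved the median of all genes by -0.125. The differences from WT numbered 174 with quantile normalization, 201 with median scaling, 274 with control pairs, 211 with no replicate block, and 0 with normexp or on genes well above background on every array (0 to 316 with 1 HDC-KO pair left out). Those from STAT6-KO numbered 61 on genes well above background on every array, 737 with control pairs, 474 with no replicate block, and 0 with normexp or with only the genotypes of the contrast (67, 425 and 16 without the HDC-KO pair of 1, 2 and 4 weeks). At an unadjusted p under 0.05 the STAT6-KO counts of 0 had 1168 and 2896 genes. Differences of genes not called changed sign with quantile normalization in Il1b (0.0540) and Xbp1 (0.0227), with median scaling in Ifit1 (-0.0628), without week 1 in Ifit1 (-0.0626), and without week 4 in Bpi (-0.0648), Vwf (0.23), Tubb1 (0.35) and Tgfb1 (0.19). The cause of these changes was not tested. Genes not well above background have only a bound, and 1 array a condition limits the precision.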
